A study of Mus musculus with 7 samples.

Results

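The unfolded protein response and the integrated stress response were followed here through 34 genes taken by symbol from the table of 24421 genes. They comprise 15 chaperones and folding helpers of the endoplasmic reticulum (ER), 7 genes of ER-associated degradation, 3 stress sensors with the transcription factor Xbp1, and 8 genes of the ATF4-CHOP axis. All 34 were in the table, Ero1l under that older symbol, and all 34 passed the filter on low counts. RNA had been sequenced from 7 mouse tumours, 1 per mouse, labelled week 4. Every mouse had been given anti-PD-1, an antibody to a brake on T cells. The 3 controls were also given anti-KLH, whose target (a limpet protein) mice do not make, and the other 4 mice anti-LAIR1, against an inhibitory collagen receptor of leukocytes.

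The series text describes subcutaneous tumours of the mouse lung cancer line 344SQ in 129/Sv mice of both sexes, and lung tumours raised by intratracheal adenovirus-cre in engineered mice. The labels do not say to which kind the 7 tumours belong, nor the genotype, age or sex of single mice. Mouse names carry the prefix LOHM or KWM in the controls and WTSV in the anti-LAIR1 group, so whatever these prefixes stand for cannot be told apart from treatment. Replicate numbers used below follow the order of the samples and are not part of the labels. Anti-LAIR1 replicate 4 is mouse WTSV_ah. Nothing says whether tumours shared a litter or a date, and p-values measure only the spread between these 7 samples.

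Total counts lay between 9879762 and 26255727, and levels are given as CPM, counts scaled to one common library total after TMM correction. Carcinoma markers were present in every library, with Krt8 from 495 to 819 CPM and Epcam from 11.9 to 26.6 CPM, as was the lung lineage factor Nkx2-1 at 129 to 210 CPM. The alveolar marker Sftpc did not exceed 0.524 CPM. A bulk sample cannot tell fewer cells of a type from less RNA per cell.

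Cells sense misfolded protein in the ER through 3 membrane proteins, IRE1 (Ern1), ATF6 and PERK (Eif2ak3). IRE1 splices Xbp1 mRNA and ATF6 is cleaved to an active factor, and both switch on ER chaperones and the degradation machinery. PERK phosphorylates the initiation factor eIF2, as do GCN2, PKR and HRI in response to amino acid shortage, viral RNA and other stress. This slows translation in general and raises translation of ATF4, which drives amino acid synthesis and transport genes and, with CHOP (Ddit3), genes of feedback and cell death. Secretory tumour cells, collagen-producing fibroblasts and plasma cells lean on this machinery.

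Promoter stretches are shown first because the chaperone genes and the genes of the ATF4-CHOP axis differ in the stress elements they hold. Whether these elements bear on the levels given below was not tested. RefSeq windows of GRCm38.p6, from 250 bases before to 50 after each start, were found for 30 of the 34 genes (all but Atf6, Hyou1, Manf and Derl1) and searched on both strands. The ER stress element ERSE (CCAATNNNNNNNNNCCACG), which ATF6 is known to bind together with the CCAAT factor NF-Y, was present in 9 of the 30. The share was 0.119% of all 32851 windows and 0.137% of all 27025 genes. The 34 genes were chosen for their known part in this response, so the count describes the list and tests nothing. ERSE was found in 7 of 13 chaperone genes, in Syvn1 and Derl3 of the degradation group, and in none of the 8 genes of the ATF4-CHOP axis. Stretches of 5 chaperone promoters follow, written 5′ to 3′ along the gene, with ERSE or its reverse complement in capitals. In Hspa5 ERSE lay 65 to 47 bases before the RefSeq start. Gene spans given below are from GENCODE M21. Those of Hspa5 and Asns begin before the RefSeq start and include the stretches shown here.
Hspa5 (chr2:34772013-34772055, + strand): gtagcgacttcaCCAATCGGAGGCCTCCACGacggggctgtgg
Hsp90b1 (chr10:86705521-86705563, - strand, reverse complement): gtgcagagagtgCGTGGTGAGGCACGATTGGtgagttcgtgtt
Calr (chr8:84847063-84847105, - strand, reverse complement): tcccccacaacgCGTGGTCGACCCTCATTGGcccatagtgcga
Canx (chr11:50325788-50325830, - strand): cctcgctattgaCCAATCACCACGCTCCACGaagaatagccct
Creld2 (chr15:88819508-88819550, + strand, reverse complement): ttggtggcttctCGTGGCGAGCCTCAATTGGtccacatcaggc

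The other elements were rarer or spread over the groups. The variant ERSE-II (ATTGG and CCACG separated by 1 base, in 0.0365% of all windows) was present in Herpud1 and Dnajb11. The XBP1 element core TGACGTGG, in 0.676% of windows, was found in none of the 30. The C/EBP-ATF element bound by ATF4 was searched as TGATGNNNC (11.1% of windows, 12.7% of all genes). It was found in 4 of the 30, Asns, Chac1, Herpud1 and Dnajb11, which is near the share of all genes. In the form TGATGNAA (3.97% of windows), added after the first search, it was found in 4 of the 8 ATF4-CHOP genes, Asns, Chac1, Atf3 and Trib3, besides Herpud1, and in 0 of 13 chaperone genes. In Trib3 this form lay 14 to 21 bases after the start, and the 250 bases before the start held it in 3 of the 8. The 2 forms can cover the same bases, as they do in Asns, Chac1 and Herpud1. Herpud1 thus held both kinds of element. In the lines below the TGATGNAA form or its reverse complement is in capitals, except in the Herpud1 line, where ERSE-II is.
Asns (chr6:7693213-7693244, - strand): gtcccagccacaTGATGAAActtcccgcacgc
Chac1 (chr2:119351037-119351068, + strand, reverse complement): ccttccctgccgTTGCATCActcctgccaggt
Atf3 (chr1:191183424-191183455, - strand, reverse complement): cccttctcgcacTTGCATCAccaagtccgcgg
Herpud1 (chr8:94386365-94386399, + strand): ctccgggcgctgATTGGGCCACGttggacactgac

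**Figure D1:**
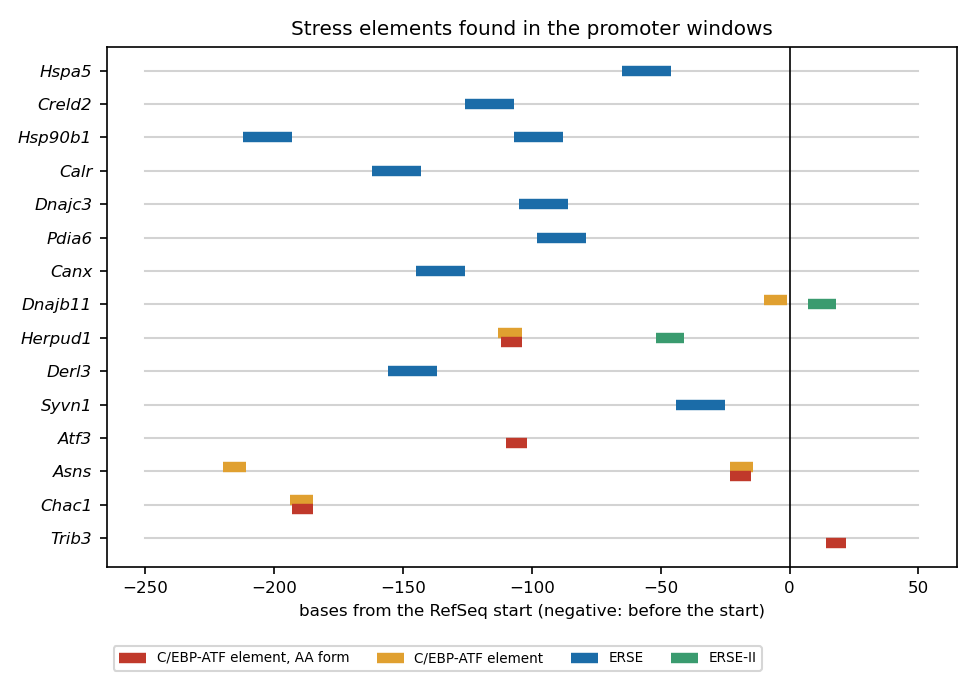
Positions of the stress elements in the 15 promoter windows that held one, in bases from the RefSeq start (x axis; negative values lie before the start), 1 line per gene. ERSE marks lie in chaperone and degradation genes, and C/EBP-ATF marks of either form in Atf3, Asns, Chac1, Trib3, Herpud1 and Dnajb11.

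The comparison asks whether blocking LAIR1 beside PD-1 changed these stress pathways in the tumour. ER chaperone mRNAs stood at nearly the same level in both groups, with a median log2 fold change of 0.05 over the 15 genes (anti-LAIR1 minus control). The 5 genes Asns, Trib3, Sesn2, Chac1 and Atf3 had log2 fold changes of 0.47 to 0.58, while Atf4 (0.04), Ppp1r15a (-0.18) and Ddit3 (-0.23) did not share this. For all of the 5 but Atf3, 1 tumour, anti-LAIR1 replicate 4, was the highest library. None of these differences passed: in edgeR's quasi-likelihood test, adjusted p-values below 0.05 were reached by 0 of the 34 and by 0 of the 13545 genes tested (0%). DESeq2 called 54 genes and limma-voom 0, with 0 of the 34 in either. Without adjustment, edgeR put 1 of the 34 under 0.05, a higher one, against 5.15% of all genes tested (3.51% higher and 1.63% lower). The groups overlapped in all 34 genes, while they did not in 5.57% of all genes tested (3.06% higher and 2.51% lower). Of the 34, 26 had a positive fold change (76.5%, against 49.1% of all genes tested); the number was 30 with library totals, 22 with limma-voom or without anti-LAIR1 replicate 4, and 15 when muscle marker level was added to the model.

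**Figure D2:**
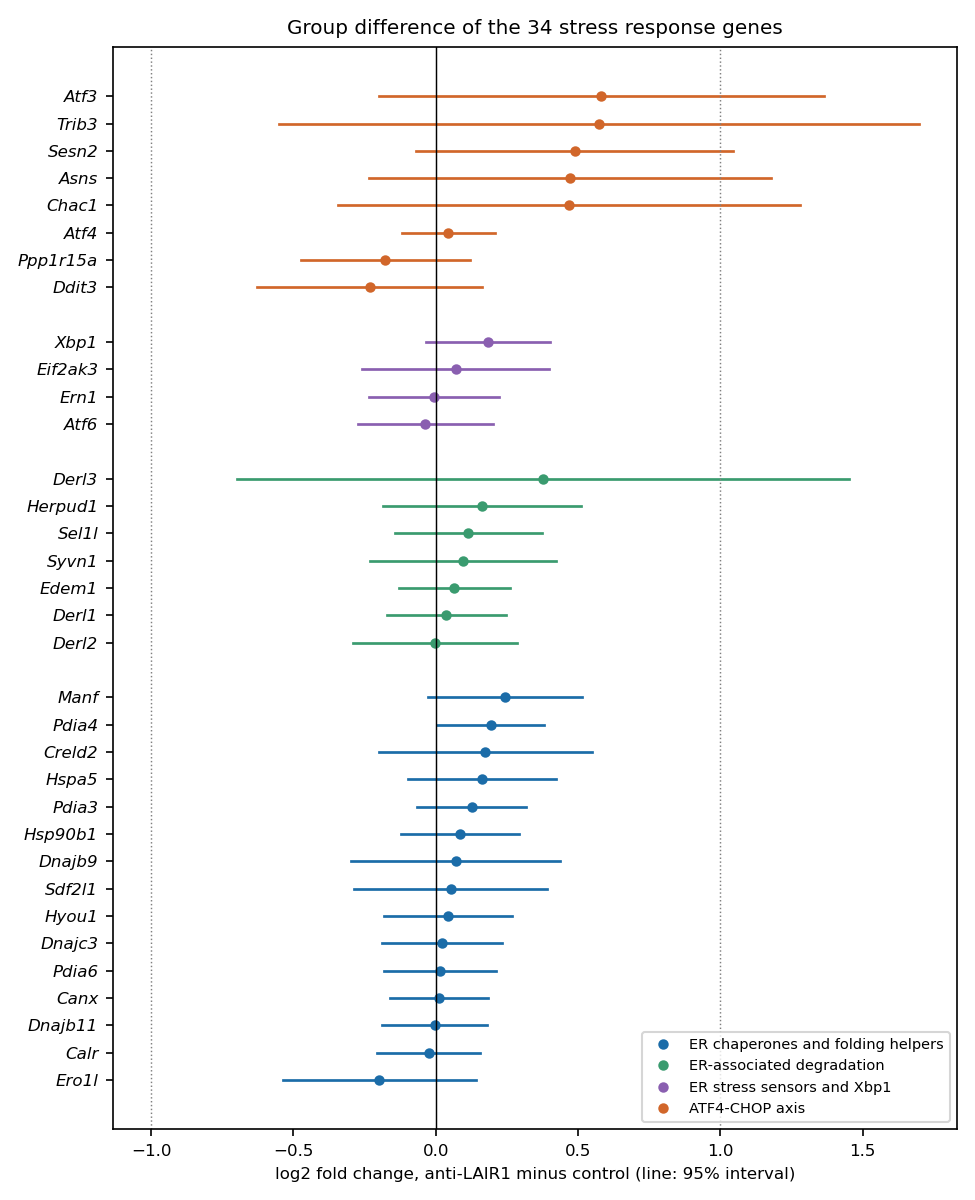
Log2 fold change of each of the 34 genes (x axis; anti-LAIR1 minus control, edgeR), with its 95% interval as a line, grouped by role; dotted lines mark a 2-fold difference. All 15 chaperone and folding genes lie between -0.20 and 0.24 with short intervals, whereas 5 genes of the ATF4-CHOP axis lie between 0.47 and 0.58 with intervals that include 0.

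Among the chaperones, Hspa5 (BiP, the main HSP70 of the ER and the regulator of the 3 sensors; chromosome 2, 34771970 to 34777547 in GRCm38) was measured at 353, 372 and 313 CPM in control replicates 1 to 3 and at 418, 352, 336 and 443 CPM in anti-LAIR1 replicates 1 to 4. The groups overlapped, anti-LAIR1 replicates 1 and 4 lying above all controls and the other 2 within their range. The log2 fold change was 0.16 (SE 0.12, edgeR adjusted p = 1.00), and its 95% interval from -0.10 to 0.42 does not reach a 2-fold difference. Without anti-LAIR1 replicate 4 the fold change was 0.09. Hsp90b1 (GRP94, the HSP90 of the ER) was at 535, 596 and 538 CPM in controls and 651, 535, 564 and 611 CPM with anti-LAIR1. Its highest library was anti-LAIR1 replicate 1, and anti-LAIR1 replicate 2 was the lowest of all 7. Calr, the calcium-binding lectin chaperone calreticulin, was at 528, 537 and 507 CPM in controls and 548, 474, 503 and 535 CPM with anti-LAIR1, a log2 fold change of -0.03 (SE 0.08). Canx, its membrane-bound partner calnexin, differed by 0.01.

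The protein disulfide isomerases form and reshuffle disulfide bonds. Among the 34, only Pdia4 (chromosome 6, 47796141 to 47813430) reached an unadjusted p under 0.05 by edgeR. It was at 123, 136 and 132 CPM in controls and 160, 135, 152 and 148 CPM with anti-LAIR1. Anti-LAIR1 replicate 2 lay below control replicate 2, and the other 3 lay above every control. The means of 149 ± 10.3 CPM (SD, n = 4) and 130 ± 6.34 CPM (SD, n = 3) differed by 0.19 on the log2 scale (SE 0.08), with an edgeR adjusted p of 0.966. Pdia3, the partner of calreticulin and calnexin in glycoprotein folding, was at 310, 349 and 327 CPM in controls and 373, 346, 331 and 386 CPM with anti-LAIR1, overlapping, with a log2 fold change of 0.13. Pdia6 differed by 0.02.

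Manf, a secreted ER stress-induced factor, had the highest fold change of the chaperone group, 0.24 (SE 0.12, edgeR adjusted p = 0.980). It was at 49.7, 51.7 and 61.2 CPM in controls and 60.6, 59.9, 59.3 and 76.1 CPM with anti-LAIR1, so 3 anti-LAIR1 libraries lay between control replicates 2 and 3 and only replicate 4 above all controls; without it the fold change was 0.15. Ero1l, the oxidase that recharges disulfide isomerases and is also induced in hypoxia, had the lowest, -0.20 (SE 0.15). Its values were 145, 217 and 136 CPM in controls and 152, 146, 139 and 141 CPM with anti-LAIR1. Control replicate 2 stood apart, and without it the Ero1l fold change was 0.04; that library also had the highest summed level of the 12 hypoxia markers, 3061 CPM against 2230 to 2791 CPM in the other libraries, and their part in the Ero1l value was not tested.

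The remaining helpers differed by less than Manf. Creld2 (0.17), the HSP70 cochaperones Dnajb9 (0.07) and Dnajc3 (0.02), the HSP110-type chaperone Hyou1 (0.04) and Sdf2l1 (0.05) had positive log2 fold changes. Dnajb11, a BiP cochaperone, varied least of the 34, with a coefficient of variation (CV) of 2.15% over the 7 libraries and values from 38.4 to 40.9 CPM. Over the 15 chaperone genes the highest library exceeded the lowest by factors from 1.06 (Dnajb11) to 1.62 (Creld2), and the median CV was 8.79%, against 13.7% over all genes tested. The chaperones are also well counted, with a median counting CV of 2.28% against 5.32%. The 95% intervals of all 15 lay within a 1.5-fold difference in either direction, as did those of 62.7% of all genes tested. The 7 chaperones that hold ERSE had fold changes from -0.03 (Calr) to 0.17 (Creld2).

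Levels per kilobase of exon, over the GENCODE M21 exon union of each gene, ordered the genes by abundance. Calr led at 180 CPM per kilobase, followed by Hsp90b1 (143), Pdia3 (110), Canx (98.5) and Hspa5 (87.3). The sensors were lower, from 22.6 for Atf6 to 8.28 for Eif2ak3. Ddit3 (4.56), Chac1 (3.39), Sesn2 (3.17) and Derl3 (1.10) closed the order, and Atf4 itself stood at 54.4 CPM per kilobase.

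**Figure D3:**
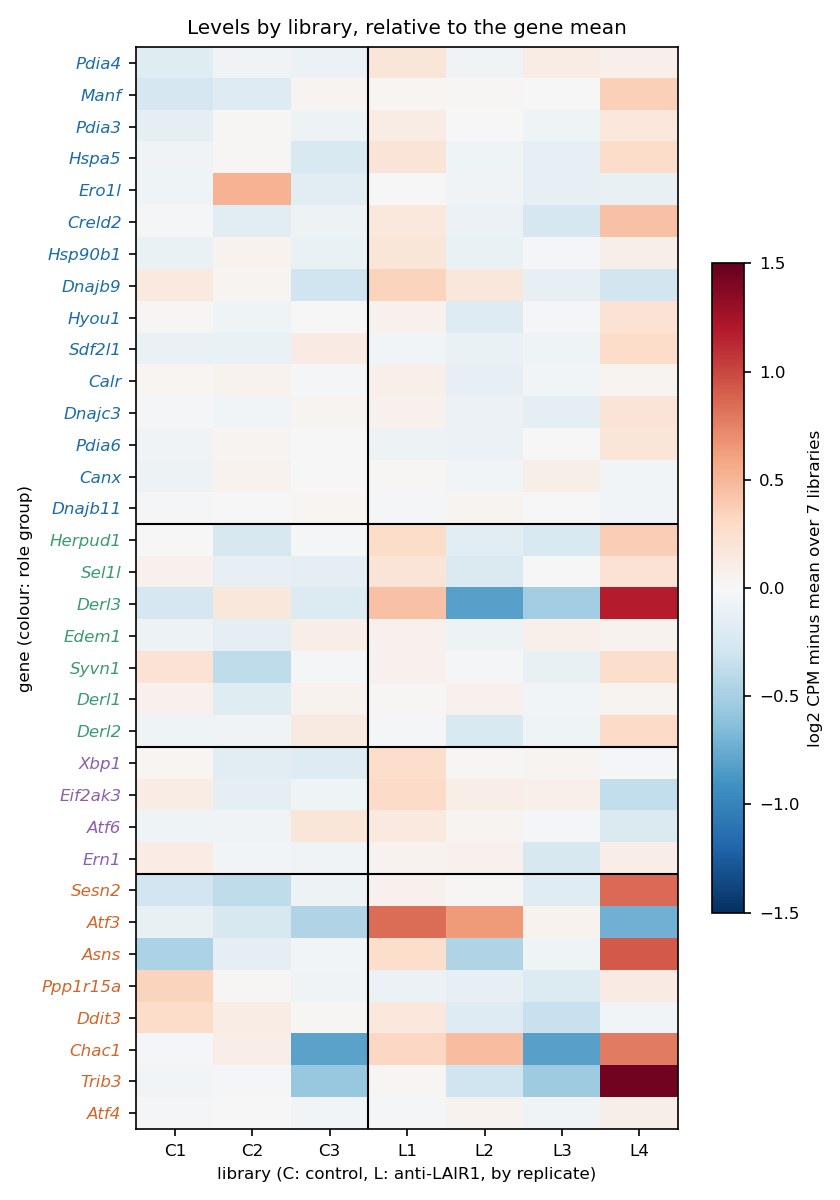
Level of each of the 34 genes (rows, grouped by role) in each library (columns; C1 to C3 control, L1 to L4 anti-LAIR1), as log2 CPM minus the mean of the gene over the 7 libraries. Chaperone rows are mostly pale, with Ero1l standing out in C2 and Creld2 and Manf in L4. Trib3, Asns, Sesn2, Chac1 and Derl3 are highest in L4, where Atf3 is lowest.

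ER-associated degradation pulls misfolded proteins back to the cytosol for the proteasome. Its 7 genes had a median log2 fold change of 0.10, with 6 of 7 positive. Herpud1, a membrane scaffold of the dislocation complex, was at 171, 145 and 168 CPM in controls and 206, 152, 146 and 219 CPM with anti-LAIR1, a fold change of 0.16 (SE 0.15, edgeR adjusted p = 1.00). Its anti-LAIR1 replicates 1 and 4 lay above all controls and replicates 2 and 3 within their range, and without replicate 4 the Herpud1 fold change was 0.05. Sel1l, the adaptor of the ubiquitin ligase HRD1, also had anti-LAIR1 replicates 4 and 1 as its highest libraries: 161, 141 and 140 CPM in controls, 176, 133, 153 and 178 CPM with anti-LAIR1. Its fold change of 0.11 was 0.06 without replicate 4. Syvn1, which encodes HRD1, had a fold change of 0.10. Edem1, a mannosidase-like lectin that marks glycoproteins for disposal, was at 107, 102 and 120 CPM in controls and 117, 106, 119 and 117 CPM with anti-LAIR1, with full overlap. The dislocation factors Derl1 and Derl2 stayed within 0.04 of no difference.

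Derl3, a derlin of secretory cells, was near the low end of detection, where 3 counts are worth 0.119 to 0.305 CPM. It was at 1.66, 2.24 and 1.73 CPM in controls and 2.7, 1.13, 1.38 and 4.5 CPM with anti-LAIR1, so the anti-LAIR1 group held both the 2 highest and the 2 lowest libraries. Its fold change was 0.38 (SE 0.48) and -0.10 without anti-LAIR1 replicate 4. The plasma cell gene Jchain was also highest in that library, 6.39 CPM against 0.395 to 1.99 CPM in the others, while the plasma cell gene Mzb1 had 0 counts there. Of the 19 plasma and B cell markers 11 were in the table, and Ms4a1 was at 0 in all 7 libraries. Their summed level, almost all of it from Sdc1, which carcinoma cells also express, was 909 to 1147 CPM in controls and 787 to 943 CPM with anti-LAIR1; its part in the Derl3 values was not tested.

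None of the sensors passed the test. Xbp1 (chromosome 11, 5520659 to 5525893), whose total mRNA is counted here without regard to splicing, was at 141, 124 and 121 CPM in controls and 166, 140, 142 and 136 CPM with anti-LAIR1. Anti-LAIR1 replicates 1 and 3 lay above all controls and the other 2 below control replicate 1. The fold change was 0.18 (SE 0.10, edgeR adjusted p = 0.980; 95% interval from -0.03 to 0.40). Eif2ak3 (PERK) was at 53.3, 45.0 and 47.2 CPM in controls and 60.2, 53.2, 52.2 and 38.3 CPM with anti-LAIR1, its anti-LAIR1 libraries being both the highest and the lowest. Atf6 was at 199, 200 and 236 CPM in controls and 229, 214, 203 and 178 CPM with anti-LAIR1, again with replicate 4 the lowest of the 7. Ern1 (IRE1) differed by -0.01. Splicing of Xbp1, cleavage of ATF6 and phosphorylation of PERK or eIF2 are not seen in gene counts.

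In the ATF4-CHOP axis, Atf4 mRNA (chromosome 15, 80255184 to 80257541) was nearly constant: 126, 127 and 125 CPM in controls and 127, 133, 124 and 136 CPM with anti-LAIR1, a CV of 3.60% and a fold change of 0.04 (SE 0.07; 95% interval from -0.12 to 0.21). Ddit3, which encodes the death-associated factor CHOP, was at 9.38, 8.38 and 7.84 CPM in controls and 8.63, 6.78, 6.13 and 7.56 CPM with anti-LAIR1. Its fold change was -0.23 (SE 0.18, edgeR adjusted p = 1.00), 3 of 4 anti-LAIR1 libraries lying below all controls. Ppp1r15a (GADD34), the phosphatase subunit that reverses eIF2 phosphorylation, was at 30.3, 24.3 and 23.2 CPM in controls and 22.7, 22.2, 21.0 and 26.2 CPM with anti-LAIR1, also overlapping, with a fold change of -0.18.

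The amino acid and feedback targets were higher in anti-LAIR1 replicate 4 than elsewhere. Asns, asparagine synthetase (chromosome 6, 7675169 to 7693254), was at 25.5, 31.9 and 34.3 CPM in controls and 42.5, 25.8, 33.8 and 66.9 CPM with anti-LAIR1. Its mean was 42.3 ± 17.8 CPM (SD, n = 4) against 30.6 ± 4.54 CPM (SD, n = 3), a fold change of 0.47 (SE 0.30, edgeR adjusted p = 1.00). Replicates 2 and 3 lay inside the control range. Sesn2, which encodes the growth inhibitor sestrin 2, was at 8.71, 8.15 and 10.1 CPM in controls and 11.1, 10.7, 9.33 and 19.1 CPM with anti-LAIR1, a fold change of 0.49 (SE 0.25, edgeR adjusted p = 0.980). Trib3, a pseudokinase that restrains ATF4, and Chac1, a glutathione-degrading enzyme, are given by library although the rule for named genes did not reach them. Trib3 was at 10.3, 10.5 and 7.13 CPM in controls and 10.7, 8.58, 7.34 and 28.9 CPM with anti-LAIR1, so replicate 4 was 2.69 times the next library. Chac1 was at 5.11, 5.54 and 2.95 CPM in controls and 6.39, 7.12, 2.94 and 8.86 CPM with anti-LAIR1. Without replicate 4 the median fold change of the 8 genes was 0.09 in place of 0.47, Trib3 stood at -0.07, Asns at 0.16, Sesn2 at 0.21 and Chac1 at 0.26.

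Atf3, a stress factor induced by ATF4 and by many other signals, ran the other way in that library. It was at 23.6, 21.6 and 18.6 CPM in controls and 45.8, 39.8, 26.5 and 15.5 CPM with anti-LAIR1. Replicates 1 to 3 lay above every control and replicate 4 below all of them. The fold change was 0.58 (SE 0.34, edgeR adjusted p = 0.981). Over all alternatives the adjusted p of Atf3 ran from 0.675 (limma-voom) to 1.00 (edgeR). Without replicate 4 the Atf3 fold change was 0.81 (edgeR adjusted p = 0.742). In that fit Atf3 (higher) and Ppp1r15a (lower) were the 2 of the 34 whose groups did not overlap, against 10% of the genes tested in it. The summed level of 12 immediate early genes, which can be induced during tissue handling, as Atf3 can, was 484 CPM in anti-LAIR1 replicate 4, 607 to 770 CPM in the other anti-LAIR1 libraries and 664 to 751 CPM in controls. Among these genes 5 of 12 had a positive fold change. Replicate 4 was the lowest library for 6 of the 12 (50%, against 21.6% of all genes tested). Anti-LAIR1 replicate 1, the highest library for Atf3, was the lowest for 3 of them. Fosb, picked after its values were seen, was at 55.0, 69.4, 41.4 and 15.2 CPM in the 4 anti-LAIR1 libraries. Their part in the Atf3 values was not tested.

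Other targets of the integrated stress response were also mostly highest in anti-LAIR1 replicate 4. Their list was chosen with earlier results of these data known, so it is no independent check. Of 39 further targets (amino acid transport and synthesis, aminoacyl-tRNA synthetases, C/EBP and ATF factors) 37 were tested, and 0 passed the adjusted test. At an unadjusted p under 0.05, 1 of the 37 was higher, against 3.51% of all genes tested. A positive fold change was found in 30 (81.1%, against 49.1% of all genes tested), with a median of 0.14. Their summed level was 2708, 2815 and 3044 CPM in controls and 2946, 2924, 2804 and 3944 CPM with anti-LAIR1, only replicate 4 standing clear of the rest. This library was the highest of the 7 for 29 of the 37 (78.4%) and for 18 of the 34 genes above (52.9%), against 19.1% of all genes tested. Among the 34 it was highest for 8 of 15 chaperone genes (53.3%) and 5 of 7 degradation genes (71.4%). The same held for 5 of 8 ATF4-CHOP genes (62.5%) and 0 of 4 in the sensor group. The chaperones did not single out replicate 4 in their sum. The 15 genes summed to 3342 CPM in replicate 4 and 3346 CPM in anti-LAIR1 replicate 1, against 2967 to 3226 CPM elsewhere. Anti-LAIR1 replicate 1 was highest for 4 of the 15 chaperone genes (26.7%) and for 1 of the 37 (2.7%), against 15.9% of all genes tested. Of the 37 together with the 8 ATF4-CHOP genes, 10 were in replicate 4 more than 1.5 times every other library (22.2%, against 1.98% of all genes tested). In any other library 0 of them were, and 0 of the 15 chaperone genes were in any library. The 10, picked by these values, were Trib3, Asns, Sesn2, Atf5, Gdf15, Slc7a11, Slc7a5, Psph, Mthfd2 and Cth. Without replicate 4 the median over the 37 was -0.02 with 17 positive.

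Slc7a11, the cystine importer, which the oxidative stress factor NRF2 also controls, was at 12.4, 14.7 and 24.2 CPM in controls and 16.2, 22.9, 13.8 and 108 CPM with anti-LAIR1. Cth, which makes cysteine from cystathionine, was at 3.37, 4.56 and 8.35 CPM in controls and 3.56, 4.86, 4.66 and 28.3 CPM with anti-LAIR1. Both were named after their values were seen, and in both the other 3 anti-LAIR1 libraries lay within the range of the controls. The large neutral amino acid carrier Slc7a5 reached 164 CPM in replicate 4 against 52.7 to 83.9 CPM elsewhere, the serine synthesis enzyme Psph 19.8 against 6.12 to 8.86 CPM, and the mitochondrial folate enzyme Mthfd2 38.5 against 14.4 to 22.3 CPM. The edgeR fold changes of Slc7a11 and Cth were 1.25 (SE 0.80) and 0.97 (SE 0.82), and 0.06 and -0.29 without replicate 4.

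**Figure D4:**
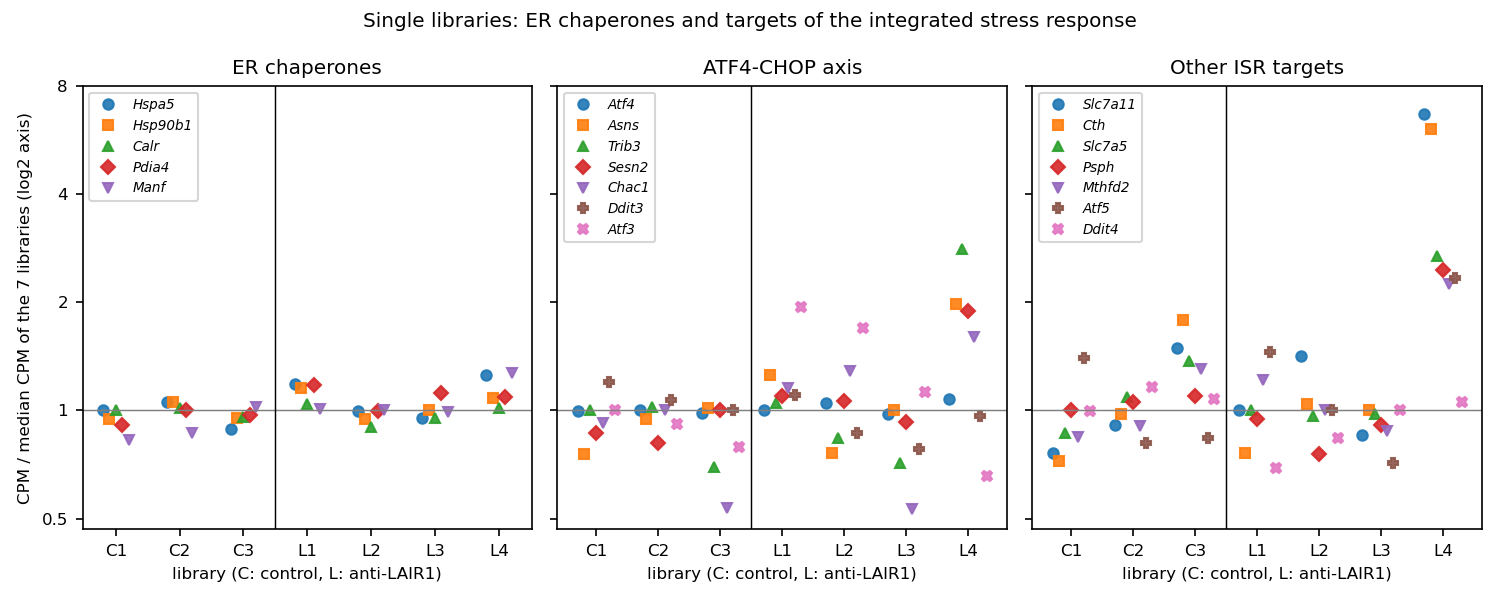
CPM of single genes divided by the median of the gene over the 7 libraries (y axis, log2 scale) in each library (C1 to C3 control, L1 to L4 anti-LAIR1). The 5 chaperones stay nearer to 1 than the raised targets, although Manf (76.1 CPM) and Hspa5 (443 CPM) are slightly higher in L4. In L4 Slc7a11, at 108 CPM, and Cth, at 28.3 CPM, stand farthest from the rest. Trib3, Asns and Sesn2 are also raised there, and Ddit3 and Ddit4 are not.

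The same library differed in other ways. Its summed level of 12 fibroblast markers was 5190 CPM, against 8044 to 8879 CPM in the other anti-LAIR1 libraries and 8175 to 8568 CPM in controls, with 8 of the 12 positive in the group comparison. The alveolar surfactant gene Sftpb was at 3103 CPM there, against 1094 to 1582 CPM elsewhere, most of the summed 3641 CPM of the 10 lung markers. Skeletal muscle markers summed to 129 CPM in it and to 132 and 95.8 CPM in anti-LAIR1 replicates 1 and 3, against 11.8 to 16.4 CPM in the other 4 libraries. Leukocyte markers were higher with anti-LAIR1 in 14 of 14, with sums of 339 to 427 CPM against 252 to 278 CPM. The part of these cell types in the stress gene values was not tested.

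Of the wider pathway, Wars, a tryptophanyl-tRNA synthetase that interferon gamma also induces, was the 1 of the 37 further targets with an unadjusted p under 0.05: 131, 77.9 and 89.9 CPM in controls and 210, 161, 114 and 273 CPM with anti-LAIR1. Its fold change was 0.92 (SE 0.31, edgeR adjusted p = 0.933), only replicate 3 overlapping the controls. Of all genes tested, 3.51% were higher at an unadjusted p under 0.05. Ddit4, an mTOR inhibitor induced by stress and hypoxia, had a fold change of -0.27 (edgeR adjusted p = 0.980). Among 15 genes of the eIF2 kinases, phosphatase and exchange factor, 0 passed at an unadjusted p under 0.05 and the median was 0.05. The interferon-induced kinase PKR (Eif2ak2) was at 63.1, 71.0 and 61.4 CPM in controls and 79.9, 68.8, 68.3 and 115 CPM with anti-LAIR1, a fold change of 0.35 (SE 0.18). The exchange factor subunit Eif2b5 was the 1 gene of this list whose groups did not overlap, against 5.57% of all genes tested. It was at 65.0 to 65.8 CPM in controls and 60.0 to 62.3 CPM with anti-LAIR1, a fold change of -0.10.

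Folding and degradation genes outside the 34 were as steady. Over 40 further genes of ER folding, glycosylation and translocation, 25 were positive with a median of 0.02, and over 20 further degradation genes 11 were positive with a median of 0.03. At an unadjusted p under 0.05, 0 passed in either list. The smallest p-values belonged to the signal peptidase subunit Sec11c (0.21) and the disulfide isomerase Pdia5 (0.21), and in the degradation list to the ubiquitin ligase Rnf139 (0.17) and the ubiquitin-conjugating enzyme Ube2j2 (-0.42), the values being log2 fold changes. Of 16 other signalling genes 13 were positive with a median of 0.14 and again 0 passed, the IRE1 adaptor Traf2 (0.22) and the ATF6-cleaving protease Mbtps1 (-0.16) having the smallest p. DESeq2 and limma-voom called 0 of all these pathway genes. Cytosolic heat shock genes, a separate stress pathway, had 4 of 17 positive with a median of -0.04, Hsph1 standing at -0.20 and Hspa4l at -0.15.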

How the data were processed

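Raw counts by gene symbol were deposited by the authors, with 1 column for each mouse. The submitters' processing notes name mm10 and the tools featureCounts 2.0.1, STAR 2.7.6, edgeR 3.40.1 and Trim Galore. No source used here gives the annotation, the strand setting or what was done with multiply mapped reads. Exons of 10 of the 34 genes overlap another annotated gene, 8 of them on the opposite strand (Ddit3 with the tRNA synthetase gene Mars, Hsp90b1 and Syvn1 among them). Depending on the settings, those counts may include reads of the other gene or lack reads from the shared bases.

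These counts were tested with edgeR 4.0.16 under R 4.3.3, using filterByExpr (minimum count 10), TMM and a quasi-likelihood model, robust and without covariates, of the 7 libraries over 13545 genes, Benjamini-Hochberg adjusted over all of them (threshold 0.05). Alternatives used DESeq2 1.42.0, limma 3.58.1 (voom), other scalings and filters, each library left out, and a muscle covariate. The model code was tested on simulated data. Values after ± are SDs. A CV over libraries includes the group difference, and the counting CV is what read sampling alone gives. The smallest chi-square per degree of freedom between 2 libraries was 6.43, so none repeated another. Coordinates and exon lengths come from GENCODE M21 (GRCm38), counted from 1.

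The genes and lists were chosen with earlier results of these data known. Values by library are given for Hspa5, Hsp90b1, Calr, Xbp1, Ero1l, Atf4, Ddit3 and Atf3, and for the 4 genes of smallest p per role group (3 among the sensors), and from other lists the 2 of smallest p are named. Trib3, Chac1, Fosb, Jchain and the genes high in anti-LAIR1 replicate 4 were added after their values were seen. Protein sequences were not used here. Figures used matplotlib 3.10.9. The alleles of the tumour models are not reported here.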

Additional observations from a re-analysis of the deposited data

Results flagged for a closer look

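Each group of 4 anti-LAIR1 values was screened for a library whose gap to the nearest other exceeds the 95% limit of Dixon's test, which chance alone passes in about 1 of 20 groups. Of 72 values screened, 34 of them the stress genes, 11 passed, and 8 of these were high values of anti-LAIR1 replicate 4. Among the 34 genes these were Manf (76.1 CPM, next 60.6), Sdf2l1 (14.2 CPM, next 11.5) and Trib3 (28.9 CPM, next 10.7). Among further targets they were Slc7a11 (108 CPM, next 22.9), Slc7a5 (164 CPM, next 61.0), Psph (19.8 CPM, next 7.64) and Cth (28.3 CPM, next 4.86), which had been picked for that library, and the summed level of the further targets (3944 CPM, next 2946). Edem1 was low in anti-LAIR1 replicate 2 (106 CPM, next 117) and Ern1 low in anti-LAIR1 replicate 3 (82.7 CPM, next 102). The summed fat cell markers were high in anti-LAIR1 replicate 2 (141 CPM, next 18.8).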

How the results depend on the processing

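Over 14 alternatives 0 of the 34 genes were called in any, and 0 were lower at an unadjusted p under 0.05. The number higher at that p was 0 with DESeq2, with no filter and with the muscle covariate. It was 2 with library totals and 0 to 2 without single libraries. Of all genes tested, in either direction, 4.28% (DESeq2), 4.49% (no filter), 2.11% (muscle covariate) and 5.39% (library totals) passed at that p. Without single libraries 3.45% to 5.81% passed. With library totals 1 gene (Xbp1) separated the groups, against 5.82% of all genes tested. Without single libraries 1 to 2 genes did, where 9.71% to 14.5% of all genes tested did. The ATF4-CHOP median was 0.10 with limma-voom, -0.014 with the muscle covariate and 0.087 to 0.58 without single libraries. With the muscle covariate the chaperone median was -0.038, and Hsp90b1 (-0.047), Herpud1 (-0.079), Sel1l (-0.089), Derl3 (-0.73), Edem1 (-0.059), Asns (-0.28) and Trib3 (-0.093) changed sign; the muscle level is low in all controls and in anti-LAIR1 replicate 2, and the cause was not tested. Calr was 0.0048 with library totals and Derl3 -0.23 with limma-voom. Without single libraries Calr ran from -0.054 to 0.014, Ero1l from -0.33 to 0.043, Atf6 from -0.090 to 0.045, Eif2ak3 from -0.018 to 0.18, Derl3 from -0.10 to 0.62 and Trib3 from -0.072 to 0.78. The other 11 of the 22 genes given by library kept their sign throughout. Of the members matched, 13 held a planned promoter element in the full window, and the other windows and forms gave 13 to 15. No paired analysis was possible because each tumour came from a different mouse and the labels give no pairs. Levels of Derl3, Chac1 and Ddit3 rest on few counts, and 7 tumours limit what could pass.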
